A study of Mus musculus with 35 samples.

Results

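Kidneys in which Flcn and Tfeb had both been deleted were compared with kidneys of the controls of the same cross, in 7 of the 35 mouse libraries of the series. The 4 libraries whose genotype is given as DKO_Flcn-Tfeb (Flcn/Tfeb DKO) and the 3 given as control_Flcn-Tfeb were chosen by their labels alone, and all 7 come from kidneys of C57BL/6 mice taken at postnatal day 2. The DKO animals carry floxed alleles of Flcn and of Tfeb (Flcn flox/flox; Tfeb flox/flox) and Ksp-cre, which is driven by cadherin 16 (Cdh16) in distal tubules, collecting ducts and thick ascending limbs, so that other cells of the kidney keep both genes. The labels do not give the alleles of the controls of this cross, and the study describes its controls as Flcn flox/flox mice. Animals of both sexes were used. RNA was sequenced by QuantSeq, which reads only the 3′ end of transcripts, and reads were counted per gene. The single Flcn KO (Flcn flox/flox; Ksp-cre+, 5 libraries) and the 5 controls of its own cross were used only to show where the DKO differs from it.

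Folliculin, the product of Flcn, activates the RagC and RagD GTPases at the lysosome, and mTORC1 recruited by them phosphorylates the transcription factors TFEB and TFE3 and keeps them in the cytoplasm. Without folliculin these factors enter the nucleus and switch on genes of lysosomes and autophagy, many of which carry the sequence CACGTG near their start. In the kidney, loss of folliculin in distal segments is followed by cysts. The comparison asks which expression changes are left, and which appear, when TFEB is removed together with folliculin.

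The libraries held 1652649 to 2889820 counts in the DKO (median 2790410) and 1832651 to 2992169 in the controls (median 1889295), and a count of 0 allows up to 3 counts, or 1 to 1.82 CPM (counts scaled to library size), for counting error only. Control 3 stood apart from the other 6 libraries. On the first principal component (45.5% of the variance) it lay at 79.0, against -19.2 to -7.67 for the others. Its median correlation with the other libraries was 0.873, against 0.947 to 0.957, and 4.47% of its counts were mitochondrial, against 9.16% to 11.9%. Its ribosomal protein genes summed to 61165 CPM, against 109910 to 128760, and its cell cycle genes to 5483 CPM, against 2630 to 2956. Reads on no gene were 9.07% of its reads, against 17.8% to 19.9%. The medians of the DKO lists and many single genes are therefore also given without it, a choice made after these values were seen. Lists without it count the genes that the fit of the other 6 libraries tested, which can differ by a few. Xist had 1633 to 2153 CPM in control 2 and DKO 1, 2 and 4 and 290 CPM in control 3, which is one more measure on which control 3 stood apart, and Ddx3y was high in control 1 and DKO 3, so that each group held 1 library with Y-linked expression.

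**Figure D1:**
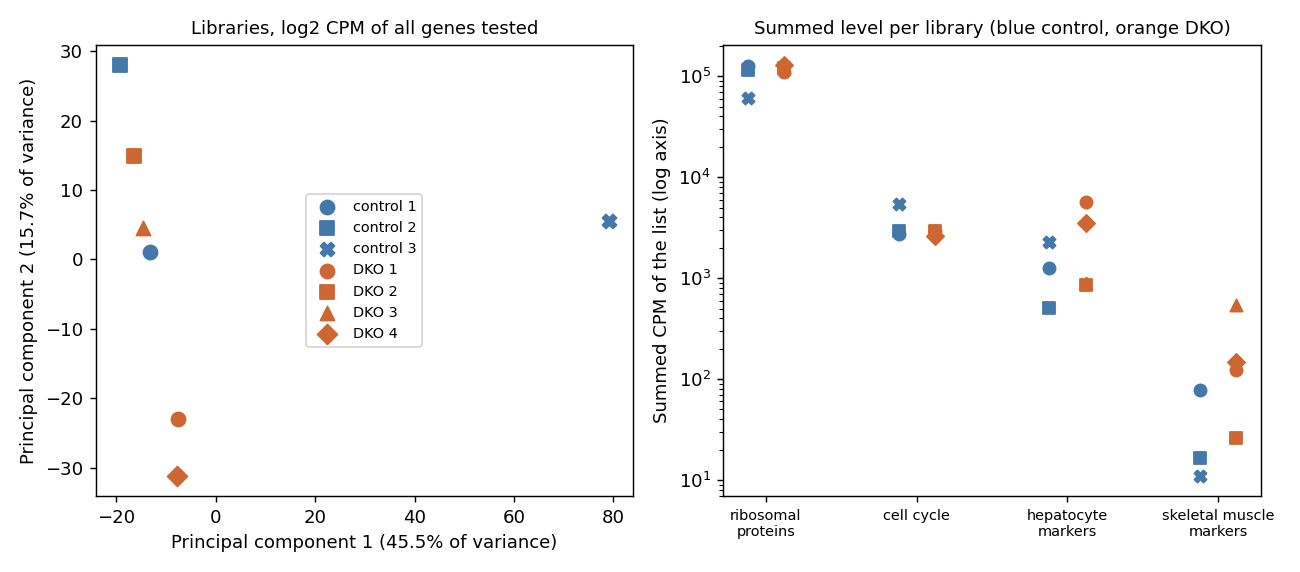
Left, each of the 7 libraries by the first 2 principal components of log2 CPM over all genes tested, where control 3 lies at 79.0 on the first. Right, the summed CPM (log axis) of 4 gene lists in each library, blue for controls and orange for DKO, where control 3 is lowest for ribosomal proteins and highest for the cell cycle, and DKO 3 is highest for skeletal muscle markers.

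The deleted genes were examined first. Flcn (chr11:59791408-59810016, minus strand, mm10) had 11.1, 9.93 and 15.4 CPM in the controls and 12, 16, 15.5 and 10.4 CPM in the DKO, and the groups overlapped. Tfeb (chr17:47737030-47792419, plus strand) had 8.92, 6.62 and 18.7 CPM in the controls and 7.51, 6.16, 7.19 and 7.39 CPM in the DKO. All DKO libraries lay below control 1 and 3 of them above control 2, and the highest value was that of control 3. Its log2 fold change was -0.73 (95% interval -1.56 to 0.10), or -0.12 without control 3. Reads from the 3′ end check the genotype only if the deleted exons lie there, the sources used here do not say which exons these are, and cells outside the Cre domain keep both genes, so these counts check neither deletion. Cdh16, which marks the cells that express the Cre, had 185 to 335 CPM in the controls and 194 to 206 CPM in the DKO. Of the relatives of TFEB, Tfe3 had a log2 fold change of -0.14 (SE 0.24) and Mitf of -0.23 (SE 0.23).

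Across the transcriptome, no gene of 12469 tested was called in Flcn/Tfeb DKO kidneys (edgeR's quasi-likelihood test, 0% at a Benjamini-Hochberg adjusted p under 0.05, smallest adjusted p = 0.798). DESeq2 and edgeR's likelihood ratio test also called 0 genes. At an unadjusted p under 0.05, 632 genes passed, of which 232 (1.86% of those tested) were higher and 400 (3.21%) lower, 5.07% in all, and DESeq2 passed 490. All DKO libraries lay above all controls for 338 genes (2.71%) and below them for 366 (2.94%). Without control 3, 655 of 12352 genes had an unadjusted p under 0.05 (2.96% higher and 2.34% lower), again with 0 called, and 196 genes passed in both with the same sign. The median 95% interval extended 0.60 to either side of the log2 fold change, and 0.54 for the 9712 genes with at least 10 CPM in the controls, which gives the precision of a single gene and is not a limit of detection. For comparison, 62 of 11932 genes (0.52%) were called in the single Flcn KO, 54 higher and 8 lower. Since every adjusted p for the DKO effect was at least 0.798, the unadjusted p-values below only rank genes. The p-values measure the spread between these animals' libraries. Because whole kidneys were used, fewer cells of a type and less RNA per cell cannot be told apart.

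The transcripts increased in the single Flcn KO lay close to their controls in the DKO. The study lists 139 transcripts as increased in Flcn KO kidneys, a list it chose on the Flcn KO libraries, and 138 are in the counts. Of the 116 that passed the filter on low counts in the DKO comparison, 68 lay above 0 and the median log2 fold change was 0.07 (0.04 without control 3), beside -0.02 over all genes tested. In the Flcn KO, where the list was chosen, the median was 0.82. In the DKO 103 of the 116 lay between -0.5 and 0.5, 4 had an unadjusted p under 0.05 in the higher direction and 1 in the lower, and 7 were separated upwards and 3 downwards, beside 1.86%, 3.21%, 2.71% and 2.94% of all genes. Over all genes tested the median log2 fold change without its sign was 0.23, so that most genes also lay between -0.5 and 0.5. Of the 115 measured in both crosses, all 115 had a lower log2 fold change in the DKO than in the KO, and for 81 the 95% interval of the DKO effect lay wholly below the KO estimate. Since the list was chosen for high values in these KO libraries, a lower DKO value is partly built into both counts. The second also leaves out the error of the KO estimate. The other 22 increased transcripts were too low to test. Their highest CPM was 9.69 in any control and 16.9 in any DKO library, the latter Rnase1 in DKO 2, and 13 of the 22 had a higher mean in the DKO.

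**Figure D2:**
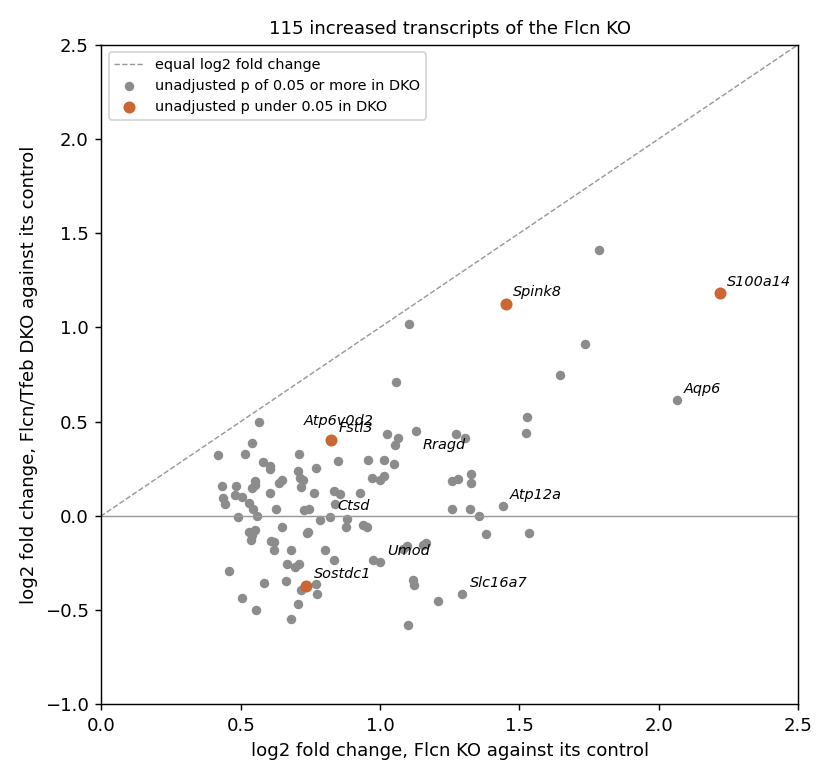
The log2 fold change of 115 increased transcripts in the Flcn KO against its control (x axis) and in the Flcn/Tfeb DKO against its own control (y axis), one point per gene. All points lie below the dashed line of equal change, most of them around 0 on the y axis, and S100a14 and Spink8 are among the few above 1. The genes were chosen on the Flcn KO libraries, so that a place below the line is partly built in.

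A direct test of the difference between the effects, taken as DKO against control less Flcn KO against control over the 17 libraries, called 2 of 13049 genes (0.0153%), both increased transcripts of the KO. Since the list was chosen on the KO libraries, which enter this test, a lower effect in the DKO is partly built into it. Slc16a7, a monocarboxylate transporter, had 31.2, 27.0 and 37.4 CPM in the controls and 28.9, 21.5, 26.6 and 18.9 CPM in the DKO. In the Flcn KO it had 90.1 ± 16.1 CPM against 36.2 ± 6.17 in its controls (mean ± SD, 5 libraries each). The difference of the effects was -1.72 (SE 0.25, adjusted p = 0.0090, edgeR). Sostdc1, a secreted antagonist of BMP and Wnt signalling, had 341, 295 and 374 CPM in the controls and 274, 251, 268 and 250 CPM in the DKO, so that it was lower in every DKO library, whereas it had 596 ± 21.5 CPM in the Flcn KO and 358 ± 29.8 in its controls. Its difference of effects was -1.11 (SE 0.17, adjusted p = 0.0090). Without DKO 4 neither was called (smallest adjusted p = 0.0506). Of the 133 increased transcripts in this test, 130 lay below 0 (median -0.81) and 85 had an unadjusted p under 0.05, beside 484 of all genes (3.71%) below 0 and 292 (2.24%) above. Atp12a, the non-gastric proton-potassium pump, had 32.9, 23.2 and 19.5 CPM in the controls and 27.4, 22.8, 24.5 and 28.5 CPM in the DKO, and 70.7 ± 12.7 CPM in the Flcn KO. Umod, the uromodulin of the thick ascending limb, had 201, 141 and 338 CPM in the controls and 209, 183, 209 and 167 CPM in the DKO, and 485 ± 64.1 CPM in the Flcn KO. Both differences missed the threshold in this fit (-1.38, adjusted p = 0.157, and -1.25, adjusted p = 0.265) and were called on all libraries by DESeq2 (adjusted p = 0.0115 for Atp12a and 0.0175 for Umod) and by the likelihood ratio test (adjusted p = 0.0081 and 0.0266). With the quasi-likelihood test they were called without control 3 (Atp12a, adjusted p = 0.0352) or without control 2 (Umod, adjusted p = 0.0153). DESeq2 and the likelihood ratio test also called Tspo (adjusted p = 0.0236 and 0.0266) and Mfsd4a (adjusted p = 0.0236 and 0.0194). Ctsd, described below, was called by DESeq2 (adjusted p = 0.0102) but not by the likelihood ratio test. Cyp4a31, a fatty acid hydroxylase with close paralogs that may share reads, had 1.67, 33.7 and 40.1 CPM in the controls and 3, 2.46, 3.24 and 2.59 CPM in the DKO, so that control 1 lay below the DKO and the other controls far above it. It had 42.8 ± 2.11 CPM in the Flcn KO and 49.7 ± 6.57 CPM in its controls. Its difference of effects was -2.96 (SE 0.60, adjusted p = 0.212), and it was called by DESeq2 (-2.93, adjusted p = 0.0061), by the likelihood ratio test (adjusted p = 0.0029), with no filter on low counts (adjusted p = 0.0237) and without control 1 (-3.46, adjusted p = 1.1e-07).

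The 4 increased transcripts that were higher in the DKO at an unadjusted p under 0.05 are described here. They were picked by that p, and none was called. S100a14, a calcium-binding S100 protein of epithelia on chromosome 3, had 12.3, 8.28 and 5.77 CPM in the controls and 17.6, 19.1, 20.9 and 19.6 CPM in the DKO. All DKO libraries lay above all controls, and the log2 fold change was 1.18 (SE 0.29, 95% interval 0.53 to 1.83, unadjusted p = 0.0021), or 0.91 without control 3. In the Flcn KO it was 2.22 (SE 0.21, adjusted p = 2.8e-05, edgeR), and the difference of the effects was -1.02 (unadjusted p = 0.0087, adjusted p = 0.733). Spink8, a member of the Kazal family of serine protease inhibitors, had 113, 71.2 and 27.5 CPM in the controls and 152, 179, 119 and 158 CPM in the DKO, with log2 fold changes of 1.13 (SE 0.37), of 0.72 without control 3 and of 1.45 in the Flcn KO. Its groups were separated, by a small margin between control 1 and DKO 3. Fstl3, which binds and inhibits activins, had 35.7, 38.1 and 39.0 CPM in the controls and 45.4, 50.5, 52.5 and 51.0 CPM in the DKO, a log2 fold change of 0.40 (SE 0.16), about the same without control 3 (0.44) and lower than in the Flcn KO (0.82). Camp, the cathelicidin of neutrophils, had 3.90, 1.10 and 0.27 CPM in the controls and 10.9, 4.92, 3.24 and 3.70 CPM in the DKO, and was too low to test in the Flcn KO. It overlapped between the groups, and its log2 fold change of 1.87 (SE 0.77) was the highest of the list.

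The study marks 13 increased transcripts as positive in earlier chromatin immunoprecipitation of TFEB (ChIP-positive). Among these 10 could be tested, and all 10 lay above 0, with a median of 0.21. The median over all genes was -0.02, none of the 10 had an unadjusted p under 0.05, and without control 3 the median was 0.08 with 6 of 10 above 0. In the Flcn KO 12 could be tested and their median was 0.87. Rragd, which encodes the GTPase RagD, had 15.1, 9.93 and 19.0 CPM in the controls and 22.5, 22.2, 19.4 and 17.7 CPM in the DKO. The DKO libraries lay above controls 1 and 2 and around control 3, with a log2 fold change of 0.45 (95% interval -0.13 to 1.03), or 0.71 (unadjusted p = 0.017) without control 3, and of 1.13 in the Flcn KO. Soat1, which esterifies cholesterol, had a log2 fold change of 0.33 (SE 0.21) and Gadd45g, a stress-induced growth arrest gene, of 0.50 (SE 0.29), and their differences from the KO effect were -0.20 and -0.06, the smallest of the 10. Hsbp1l1 (0.44), Slc20a1, a phosphate transporter (0.21), Mcoln3, a lysosomal cation channel (0.20), Vamp8, a SNARE of late endosomes (0.16), Gadd45a (0.12), Asah1, the acid ceramidase (0.04), and Grn, the precursor of granulins (0.00), followed. Mcoln3, Slc20a1, Asah1 and Grn were below 0 without control 3. The 3 others were too low to test. Gpnmb, a transmembrane glycoprotein known as a marker of active TFEB and TFE3, had 0.56, 1.10 and 0 CPM in the controls and 3, 1.23, 0.72 and 0 CPM in the DKO, against 11.9 ± 3.54 CPM in the Flcn KO and 0.26 ± 0.27 CPM in its controls. Mlph, the melanophilin of melanosome transport, had 1.67, 0.55 and 2.20 CPM in the controls and 5.26, 3.08, 2.52 and 3.33 CPM in the DKO, against 11.7 ± 1.79 CPM in the Flcn KO and 2.10 ± 1.04 CPM in its controls. Every DKO library lay above every control on this scale, at 1 to 14 counts a library, but on plain totals control 3 (2.67 CPM) lay above DKO 3 (2.44 CPM). Bhlhe41, a circadian repressor, had at most 0.82 CPM in the controls and 1.85 CPM in the DKO.

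Of the 6 increased transcripts of the lysosome category 3 lay above 0, with a median of 0.02 (-0.01 without control 3), against 0.65 in the Flcn KO. Ctsd, the lysosomal protease cathepsin D, had 402, 324 and 430 CPM in the controls and 368, 456, 375 and 336 CPM in the DKO, fully overlapping (log2 fold change -0.01, 95% interval -0.41 to 0.40). In the Flcn KO it had 803 ± 78.4 CPM against 455 ± 40.6. Its difference of effects was -0.83 (SE 0.19, adjusted p = 0.378, edgeR), and DESeq2 called it (-0.82, adjusted p = 0.0102). Hexa, the alpha chain of hexosaminidase, had a log2 fold change of 0.00 (SE 0.19, and -0.15 without control 3). Gga2 (0.16, and 0.07 without control 3) and Ap1m2 (-0.26, and -0.14), which sort proteins towards lysosomes and the basolateral membrane, lay to either side. Atp6v0d2, a subunit of the proton pump, had 8.36, 11.6 and 23.9 CPM in the controls and 18.8, 22.2, 19.4 and 22.2 CPM in the DKO. Every DKO library lay above controls 1 and 2 and below control 3, and the log2 fold change was 0.43 (SE 0.33), or 1.04 (unadjusted p = 0.0013) without control 3, about that of the Flcn KO (1.02).

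**Figure D3:**
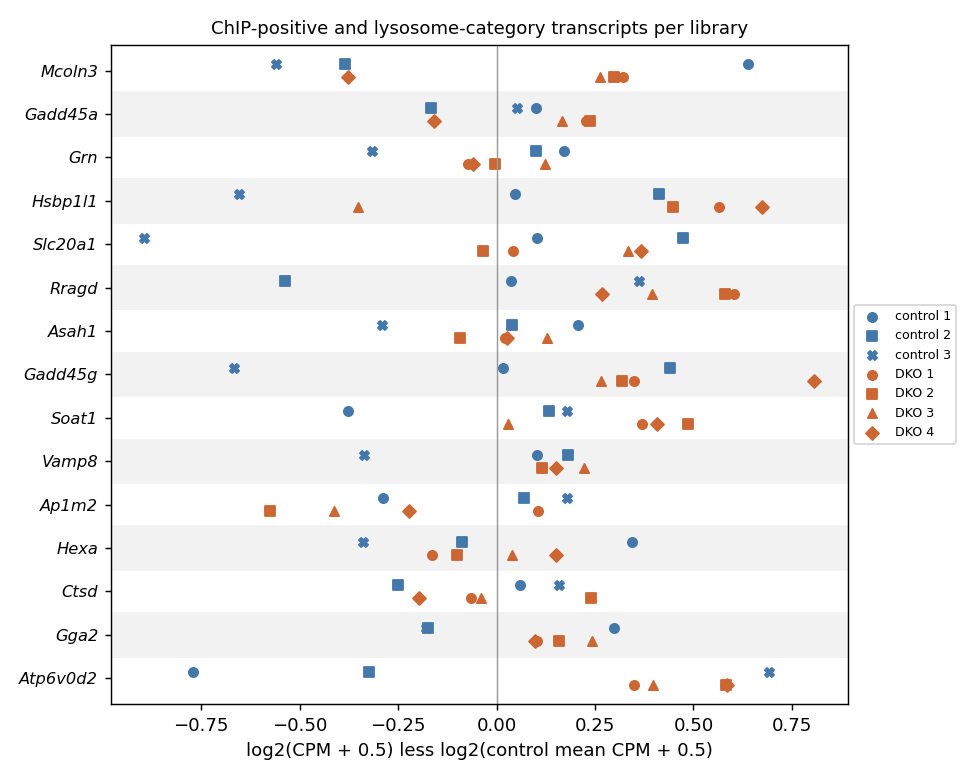
CPM of the 15 ChIP-positive and lysosome-category transcripts that could be tested, as log2(CPM + 0.5) less that of the control mean, one point per library (blue controls, orange DKO). The groups overlap for every gene, and the DKO points of Atp6v0d2 lie between controls 1 and 2 and control 3. Most DKO points of Gadd45a, Hsbp1l1, Rragd and Soat1 lie above all control points.

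The promoters of these genes were searched for CACGTG, which reads the same on both strands, in RefSeq windows (GRCm38.p6) from 250 bases before to 50 after the start. It was found for 4 of the 11 ChIP-positive genes with a window (36.4%), 2 of 4 of the lysosome category (50%) and 19 of 103 increased transcripts (18.4%), against 8.09% of all 27025 genes with a window and 11.6% of those tested here. Of the 12 genes highest in the DKO by the rule given below, 9 had a window and 0 held it, which says only that these letters are not in this window. A match is a description and not a binding site. The windows of Ctsd, at chr7:142387778-142388077 (minus strand), Slc20a1, at chr2:129198523-129198822 (plus strand), and Mlph, at chr1:90914850-90915149 (plus strand), are printed because, of the 6 genes of the ChIP-positive set and the lysosome category whose windows hold the motif, these were called in the Flcn KO. Capitals mark CACGTG.
Ctsd: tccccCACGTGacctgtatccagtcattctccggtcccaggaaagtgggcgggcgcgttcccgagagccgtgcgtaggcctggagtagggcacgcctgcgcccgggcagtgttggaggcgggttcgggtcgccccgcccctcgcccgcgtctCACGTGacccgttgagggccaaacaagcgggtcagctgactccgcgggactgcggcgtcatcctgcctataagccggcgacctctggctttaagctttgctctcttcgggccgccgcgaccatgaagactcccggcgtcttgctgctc
Slc20a1: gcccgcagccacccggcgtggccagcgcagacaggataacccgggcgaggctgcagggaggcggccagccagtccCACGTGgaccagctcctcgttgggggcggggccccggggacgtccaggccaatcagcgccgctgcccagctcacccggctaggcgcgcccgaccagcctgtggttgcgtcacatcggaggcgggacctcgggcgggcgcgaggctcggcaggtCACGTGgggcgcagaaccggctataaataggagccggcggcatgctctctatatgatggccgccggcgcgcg
Mlph: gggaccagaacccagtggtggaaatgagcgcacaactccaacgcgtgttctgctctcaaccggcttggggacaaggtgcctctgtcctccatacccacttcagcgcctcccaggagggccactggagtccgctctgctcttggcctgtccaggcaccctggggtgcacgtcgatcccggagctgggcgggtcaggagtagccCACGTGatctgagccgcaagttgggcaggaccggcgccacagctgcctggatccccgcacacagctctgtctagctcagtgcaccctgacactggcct

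Beyond the increased transcripts, lists of lysosome and autophagy genes showed no shift upwards in the DKO. Of 49 lysosomal hydrolases and their activators 10 lay above 0 (median -0.11, and -0.09 without control 3, 20 of 48 above 0), 1 had an unadjusted p under 0.05 as higher and 3 as lower, beside 1.86% and 3.21% of all genes. The lowest was Gm2a, the activator of GM2 ganglioside breakdown, at -0.70 (-0.24 without control 3). The highest was Manba, the beta-mannosidase, at 0.99, with 9.48, 4.42 and 3.57 CPM in the controls and 8.26, 12.9, 12.6 and 11.1 CPM in the DKO. Of 35 lysosomal membrane and sorting genes 18 lay above 0 (median 0.00, and -0.02 without control 3), with Lamp1 at -0.24, Lamp2 at -0.19 and Npc1 at 0.09, and Ap1s1 (-0.41) and Cln3 (0.54) at the ends. None had an unadjusted p under 0.05. Of 22 subunits of the vacuolar proton pump 11 lay above 0 (median 0.03, and 0.05 without control 3). Atp6v1g1, a ubiquitous subunit, was the highest, with 104, 84.4 and 60.7 CPM in the controls and 116, 136, 119 and 124 CPM in the DKO, all above the controls (log2 fold change 0.58, SE 0.20, and 0.39 without control 3). Atp6v1b1, a subunit of intercalated cells, lay at 0.07 (0.27 without control 3), Atp6v0a1 at -0.15 (-0.16) and Atp6v0e2, the lowest, at -0.37 (-0.18). Of 35 genes of the autophagy machinery 16 lay above 0 (median 0.00, and -0.03 without control 3), among them the receptor Sqstm1 at -0.33 (0.27 without control 3), Map1lc3b at 0.02 and Gabarapl1 at 0.00. In the Flcn KO the medians of these lists were 0.08 for hydrolases, 0.22 for membrane genes, 0.25 for the pump and 0.08 for autophagy.

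**Figure D4:**
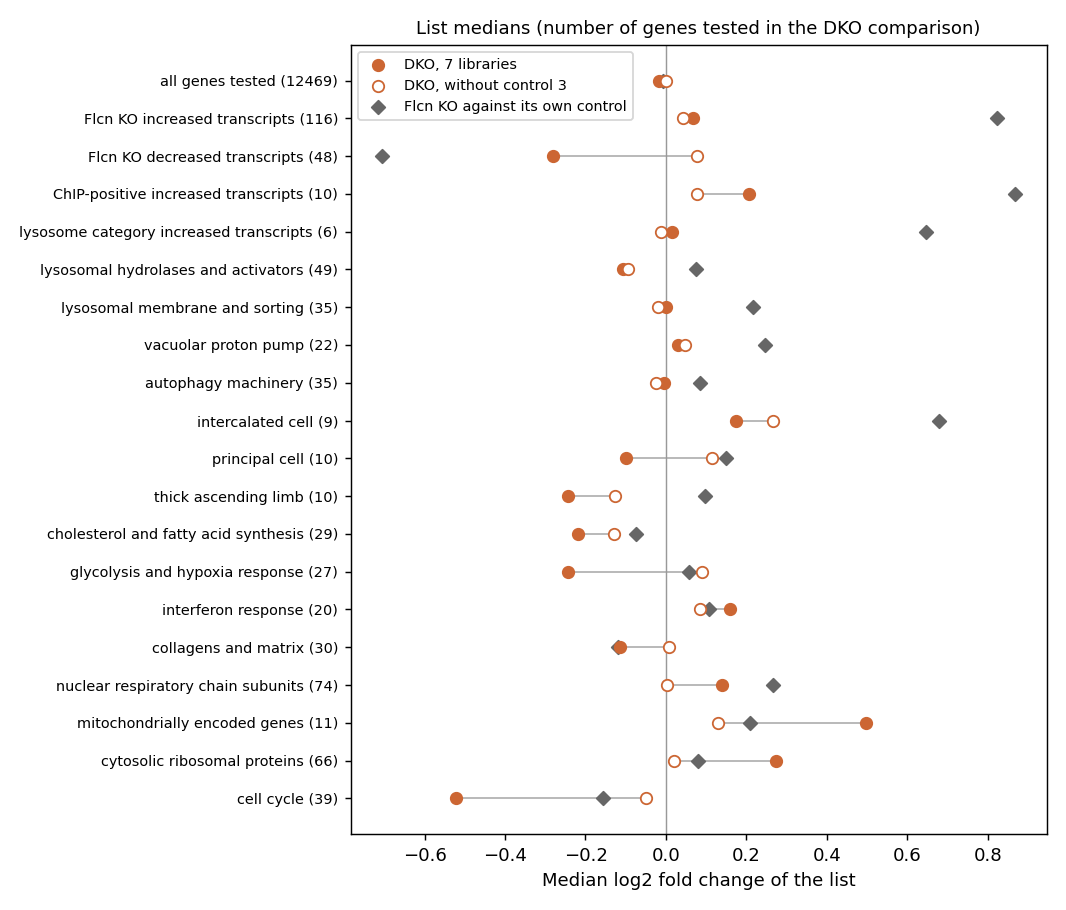
Median log2 fold change of gene lists in the DKO with all 7 libraries (filled circles), in the DKO without control 3 (open circles) and in the Flcn KO against its own control (grey diamonds). The increased transcripts lie at 0.82 in the KO and at 0.07 in the DKO, and the lists of cell cycle, ribosomal protein and mitochondrially encoded genes lie near 0 only without control 3.

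Transcripts that the study lists as decreased in Flcn KO kidneys, again chosen on the KO libraries, depended on control 3. Of 48 tested 9 lay above 0 (median -0.28), and without control 3 26 lay above 0 (median 0.08), against -0.71 in the Flcn KO. Klk1, a kallikrein of the connecting tubule, was the lowest at -1.02 (SE 0.35, and -0.46 without control 3), beside -1.43 in the Flcn KO. Lpin1, a phosphatidate phosphatase, was the highest at 0.52 (SE 0.38), beside -0.75 in the Flcn KO. Of the first members of the list, Fras1, a matrix protein of the developing kidney, lay at -0.20, Hoxc9 at 0.35 and the potassium channel Kcnj15 at -0.20.

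Markers of intercalated cells, the acid-secreting and base-secreting cells of the collecting duct, had a median above 0 with and without control 3. Of 9 tested 6 lay above 0 (median 0.17), with 3 separated upwards (2.71% of all genes) and 1 higher at an unadjusted p under 0.05 (1.86%), and without control 3 8 of 9 lay above 0 (median 0.27) and 3 were higher at an unadjusted p under 0.05, beside 2.96% of all genes in that fit. The median in the Flcn KO was 0.68. Hepacam2 had 9.48, 11 and 7.69 CPM in the controls and 18, 14.8, 14.7 and 15.5 CPM in the DKO, with no overlap (log2 fold change 0.77, SE 0.26, 95% interval 0.19 to 1.34, and 0.62 without control 3), beside 0.41 in the Flcn KO. Aqp6, a water channel of these cells and an increased transcript of the KO, had 8.36, 18.8 and 22.8 CPM in the controls and 25.2, 27.7, 27.3 and 24.4 CPM in the DKO, with no overlap on this scale (0.61, SE 0.30, 0.94 without control 3, and 2.06 in the Flcn KO). On plain totals control 3 (27.7 CPM) lay above all DKO libraries (at most 27.2 CPM) for Aqp6. Atp6v1g3, a proton pump subunit, had 162, 168 and 76.9 CPM in the controls and 172, 182, 183 and 180 CPM in the DKO (0.41, SE 0.25, 0.12 without control 3, 1.31 in the KO). Slc4a1, the basolateral chloride-bicarbonate exchanger, lay at 0.17 (0.26 without control 3) and gives the median of the list. It is also on the list of red blood cell genes. Foxi1, the transcription factor that specifies the cells, was the lowest at -1.01, with 26.7 CPM in control 3 against 3.86 to 8 CPM in the other libraries, and lay at 0.30 without it. Rhbg, an ammonia transporter, had 36.8, 39.7 and 65.1 CPM in the controls and 34.9, 26.5, 40.3 and 32.5 CPM in the DKO (-0.50, SE 0.24), and of the 3 markers below 0 it was the one that stayed below 0 without control 3 (-0.17). Principal cell markers had a median of -0.10 (0.11 without control 3) and those of the thick ascending limb of -0.24 with 2 of 10 above 0 (-0.13 and again 2 of 10 without control 3). The podocyte markers had a median of -0.33 (-0.16) with 3 of 10 lower in every DKO library than in every control, beside 2.94% of all genes. Among them Nphs1, the nephrin of the slit diaphragm, had 16.2, 17.7 and 16.2 CPM in the controls and 13.9, 8.62, 12.9 and 13.3 CPM in the DKO (-0.43, SE 0.25).

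Genes outside these lists were ranked by unadjusted p among those with separated groups whose higher group averaged 10 counts or more, 337 higher and 365 lower. The highest ranked of all was Col4a5 (chrX:141475385-141689234, plus strand), a chain of basement membrane collagen IV, with 33.4, 24.8 and 38.5 CPM in the controls and 14.3, 13.5, 18.3 and 15.2 CPM in the DKO. The DKO mean of 15.3 ± 2.11 CPM (SD, n = 4) compares with 32.3 ± 6.90 (n = 3) in the controls. The log2 fold change was -1.07 (SE 0.23, 95% interval -1.58 to -0.57, unadjusted p = 0.00071), or -0.91 without control 3, and in the Flcn KO it was -0.09. The difference of the effects was -0.99 (SE 0.24, adjusted p = 0.449). Evc2, a ciliary protein of hedgehog signalling, had 22.9, 19.3 and 25.0 CPM in the controls and 8.63, 9.85, 13.7 and 11.5 CPM in the DKO (-1.04, SE 0.25, -0.94 without control 3, -0.15 in the KO). Zfp358, a zinc finger protein, had 35.1, 27.6 and 27.8 CPM in the controls and 20.6, 17.2, 18.3 and 16.3 CPM in the DKO (-0.73, SE 0.21, -0.78 without control 3). Defb19, a beta-defensin (-0.73), Crkl, an adaptor of receptor signalling (-0.69), and Nsmce3, a subunit of the SMC5/6 complex (-1.42), were also lower by a similar amount without control 3 (-0.66, -0.62 and -1.20). For Apex1, a DNA repair endonuclease (-1.49), Gpc1, a glypican (-1.10), Zbed3 (-1.64), Ncstn, the nicastrin of gamma-secretase (-1.17), Ipo5, an importin (-0.63), and Hspa1a, an inducible heat shock protein (-1.26), control 3 was the highest library, and the values without it were -0.60, -0.56, -0.97, -0.86, -0.45 and -0.87.

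Among the higher genes, Mat2b, the regulatory subunit of methionine adenosyltransferase, had 40.7, 44.7 and 35.7 CPM in the controls and 59.7, 58.5, 68.7 and 67.3 CPM in the DKO (log2 fold change 0.66, SE 0.17, 0.58 without control 3, 0.23 in the Flcn KO). Dmxl2, which helps to assemble the vacuolar proton pump, had 19.5, 18.8 and 13.7 CPM in the controls and 33.4, 28.9, 30.9 and 28.8 CPM in the DKO (0.84, SE 0.22, 0.68 without control 3), and a similar value in the Flcn KO (0.61, SE 0.24). Ap4m1, a subunit of an adaptor complex for sorting at the Golgi, had 15.1, 20.4 and 16.8 CPM in the controls and 29.3, 25.2, 35.2 and 27.7 CPM in the DKO (0.76, SE 0.22, 0.02 in the KO). Stfa2l1, a stefin-like cysteine protease inhibitor, had 4.46, 6.62 and 3.02 CPM in the controls and 19.1, 16.6, 12.9 and 9.98 CPM in the DKO (1.69, SE 0.38), beside 1.29 (SE 0.48) in the Flcn KO. The others were low genes, of which Pou2f2 (1.75), a transcription factor of lymphocytes, Sp140 (1.63), a nuclear body protein of immune cells, and Dok3 (1.93), an adaptor of immune receptors, are known from blood cells, and D130040H23Rik (2.03), 1810063I02Rik (1.89), Gm10131 (1.69) and C920021L13Rik (0.99) are little described. Of 11 myeloid cell markers 9 lay above 0 (median 0.14, and 0.05 with 6 of 11 without control 3), with Ptprc at 0.23 and Csf1r at 0.14. C1qa (0.72, and 0.78 without control 3) and Aif1 (-0.12, and -0.62) were at the ends. C1qa was higher at an unadjusted p under 0.05, beside 1.86% of all genes. The part of myeloid cells in these values was not tested.

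**Figure D5:**
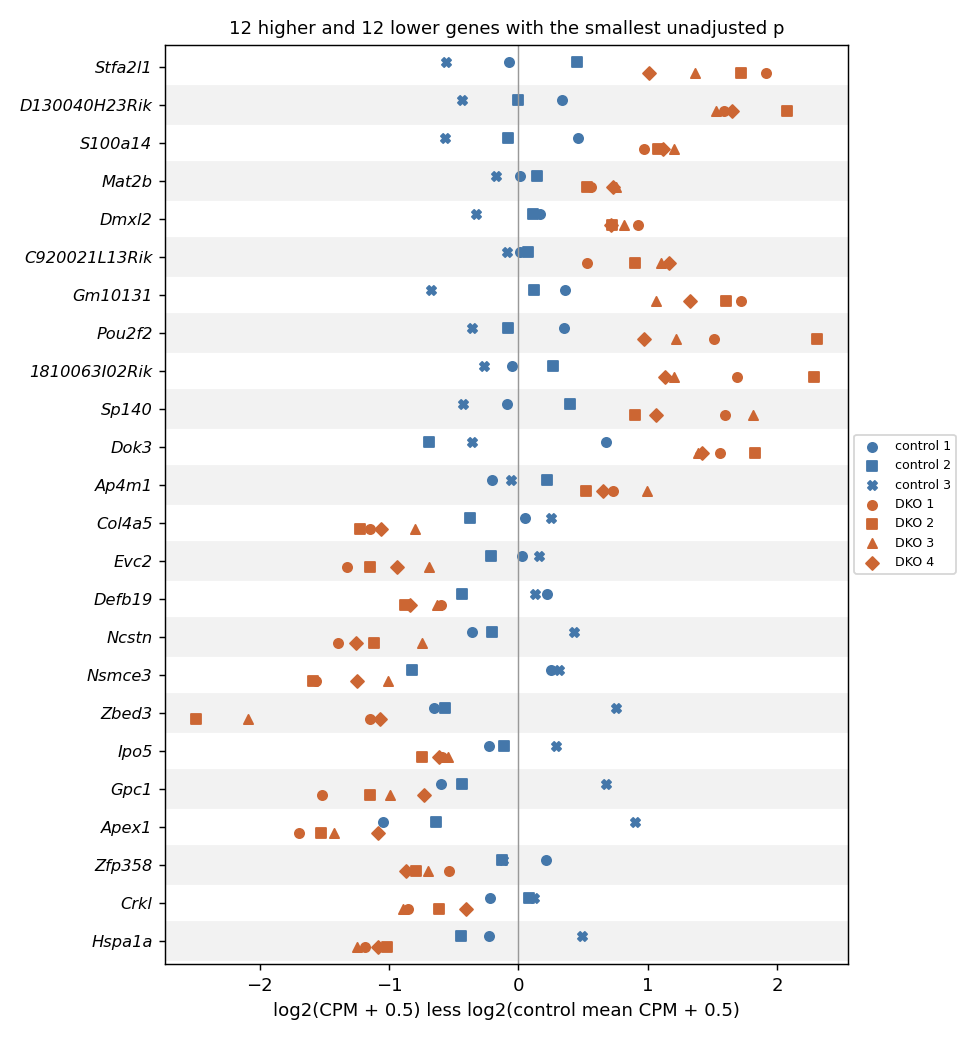
CPM of the 12 higher and 12 lower genes with the smallest unadjusted p among genes with separated groups, as log2(CPM + 0.5) less that of the control mean, one point per library (blue controls, orange DKO). The separation is how the genes were chosen, and control 3 is the farthest control for genes such as Apex1, Gpc1 and Zbed3.

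Several pathway lists moved with control 3. Of 39 cell cycle genes 7 lay above 0 (median -0.52) and 11 had an unadjusted p under 0.05 as lower, beside 3.21% of all genes, but without control 3 the median was -0.05 with 18 of 39 above 0 and 2 lower, beside 2.34% of all genes in that fit. Mki67 lay at -0.27 (-0.13 without control 3), Top2a at -0.42 (-0.18) and Cdk1, the kinase of mitotic entry, at -0.69 (-0.36), with 67.5, 65.7 and 114 CPM in the controls and 51.1, 51.1, 55.4 and 49.2 CPM in the DKO. Kif20a (-1.26) and Ccne2 (0.40) were at the ends. Cytosolic ribosomal protein genes lay above 0 for 61 of 66 (median 0.27, 0.02 without control 3), mitochondrially encoded genes for 11 of 11 (0.50, 0.13) and glycolysis and hypoxia genes for 10 of 27 (-0.24, 0.09). Of 29 genes of cholesterol and fatty acid synthesis 3 lay above 0 (median -0.22), and 8 of 29 without control 3 (-0.13). Hmgcs1, an enzyme of cholesterol synthesis, lay at -0.25 (SE 0.17). Of 20 interferon response genes 15 lay above 0 (median 0.16), and without control 3, where Gbp2 was not tested, 14 of the 20 tested did (median 0.08). Isg15 lay at 0.39 (0.05 without control 3), Ifit1 at 0.35 (1.36) and Ifit2 at -0.21 (0.23), and Gbp2 was the lowest at -0.29. Psmb8, an immunoproteasome subunit, was the highest with 7.80, 11 and 4.12 CPM in the controls and 18, 18.5, 13.3 and 12.9 CPM in the DKO (1.08, SE 0.36, 0.72 without control 3). H2-K1, a class I antigen-presenting molecule, had 29, 25.9 and 38.5 CPM in the controls and 39.4, 55.4, 42.8 and 54 CPM in the DKO (0.60, SE 0.21, 0.79 without control 3). These 2 of the 20 were higher at an unadjusted p under 0.05, beside 1.86% of all genes, and both were separated, H2-K1 by a small margin from control 3. Without control 3 these 2, H2-D1 and B2m (0.07, and 0.26 without control 3) were higher at that p, beside 2.96% of all genes in that fit. On plain totals control 3 (46.8 CPM) lay above DKO 1 (38.7 CPM) and DKO 3 (41.5 CPM) for H2-K1. H2-K1 and Psmb8 lie close together on chromosome 17 (mm10, H2-K1 at chr17:33996017-34000347 on the minus strand and Psmb8 at chr17:34197721-34201454 on the plus strand), the chromosome of Tfeb. From the same list H2-D1 and Tap1 also lie on chromosome 17, and had log2 fold changes of 0.16 (0.46 without control 3) and -0.28 (-0.42). Of all genes tested on chromosome 17, 29 of 588 (4.93%) had an unadjusted p under 0.05, and 48 of 1018 (4.72%) on chromosome 11, which holds Flcn, close to the 5.07% over all. Shares over a whole chromosome do not describe the stretch near either deleted gene, which was not tested.

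The other lists are given by their counts and medians, where an unadjusted p under 0.05 was passed by 1.86% of all genes as higher and by 3.21% as lower. Of 7 markers of the ureteric bud tip, from which the collecting duct grows, 2 lay above 0 (median -0.41) and 3 were lower at that p, and without control 3 the median was -0.08 with 0 lower. Of 21 cystic kidney disease genes 10 lay above 0 (median -0.07) and 3 were lower, and without control 3 the median was -0.03 with 0 lower. The median was 0.11 for nephron progenitors (0.25 without control 3), -0.09 for tubular injury and repair (-0.02), -0.22 for NRF2 antioxidant targets (0.03) and -0.14 for the amino acid and ATF4 stress response (0.03). It was -0.17 for the unfolded protein response (-0.02), -0.11 for heat shock (-0.02), 0.02 for immediate early genes (0.13) and -0.05 for Wnt, BMP and TGF-beta signalling (0.10). It was -0.10 for fatty acid oxidation and ketone synthesis (0.02), 0.14 for nuclear respiratory chain subunits (0.00) and -0.12 for collagens and matrix (0.01). Markers of the proximal tubule had a median of -0.14 (-0.07), of the distal convoluted tubule -0.02 (-0.02), of endothelium -0.12 (0.01) and of stroma -0.07 (0.02). Red blood cell genes had a median of 0.18 (0.15), and the list of TFEB relatives and folliculin complex genes of -0.02 (0.00).

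Transcripts of tissues beside the kidney differed in amount between libraries. The summed CPM of 8 skeletal muscle markers was 78.6, 16.4 and 11 in the controls and 122, 26, 539 and 146 in the DKO. All 6 that could be tested lay above 0 and 5 had an unadjusted p under 0.05, beside 1.86% of all genes as higher, and 5 did so also without control 3. Myh8, the perinatal myosin heavy chain, had 4.46, 0.55 and 0 CPM in the controls and 11.6, 1.23, 77.0 and 24.4 CPM in the DKO, so that DKO 3 was the highest and DKO 2 lay within the controls. The summed CPM of 16 hepatocyte markers was 1267, 500 and 2302 in the controls and 5684, 856, 902 and 3554 in the DKO, with all 15 that could be tested above 0 (median 1.18). 1 of them had an unadjusted p under 0.05, beside the same 1.86%. Without control 3 the median was 2.36 and 13 had an unadjusted p under 0.05, beside 2.96% of all genes as higher. Alb, serum albumin, had 256, 29.3 and 314 CPM in the controls and 1454, 156, 193 and 663 CPM in the DKO. DKO 1 and 4 were high, and DKO 2 and 3 lay within the controls. The summed CPM of 8 adrenal cortex markers was 27.8, 160 and 0.33 in the controls and 201, 38.7, 6.97 and 4.84 in the DKO, highest in control 2 and DKO 1. That of 11 pancreas acinar markers was 221, 210 and 88.9 in the controls and 157, 398, 160 and 175 in the DKO. Cela1 made up most of it except in DKO 2, where Ctrb1 had 36.9 CPM and Cela3b 50.2 CPM, against at most 3.82 and 1.64 CPM in the other libraries. The part of such tissue in the other results was not tested.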

How the data were processed

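RNA of mouse kidneys was sequenced as QuantSeq 3′ libraries. Per the methods, bbduk did the trimming, STAR the alignment (mm10) and HTSeq-count the counting, and the counts the authors deposited are whole numbers without normalization. The submitters' notes name Trim Galore for trimming. Reads on no gene (9.07% to 19.9% of the entries) or at several places (41.2% to 49.4%) stayed out of library sizes and tests. Of 31053 identifiers 99.6% had a symbol in GENCODE M21. Libraries of a group differed beyond sampling noise (chi-square per degree of freedom 3.14 to 39.1), so all counted singly.

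Groups came from the genotype labels. The fits used edgeR 4.0.16 (R 4.3.3), filterByExpr, TMM factors and the two-sided quasi-likelihood F test. P-values were adjusted by Benjamini-Hochberg over all genes tested. CPM are on TMM-scaled totals unless stated. Plain totals were used for summed CPM, the allowance of 3 counts, Xist, Ctrb1 and Cela3b. They were also used for the highest CPM of the 22 increased transcripts too low to test. The members and lists were chosen with earlier results of these data known, and no list was tested. Named genes are Flcn, Tfeb and relatives, the ChIP-positive and lysosome-category transcripts, 12 per direction by p, the first 3, highest and lowest of each list described as far as the text gives them, and genes called in any fit with 5 or fewer calls; others were named after their values were seen. The script was tested on simulated data. Other settings tried were RLE factors, DESeq2 1.42.0, the likelihood ratio test, other filters, a threshold of 0.1, Xist as covariate, a replicate block, all 17 libraries sharing 1 spread and each library left out. Only the Flcn and Flcn/Tfeb crosses were used. Figures were drawn with matplotlib. Of most lists only some members are named, and some genes are not reported here.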

Additional observations from a re-analysis of the deposited data

Results flagged for a closer look

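Of 94 genes and lists checked, 2 had a DKO library far from the other 3, fewer than the 1 in 20 that chance gives. Mcoln3 had 4.44 CPM in DKO 4 against 7.19 to 7.51 CPM in the others, and Gadd45g had 32.2 CPM in DKO 4 against 21.9 to 23.3 CPM. The effects of the DKO and of the Flcn KO differed by the interaction test for 2 genes, Slc16a7 (-1.72) and Sostdc1 (-1.11), as described above.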

How the results depend on the processing

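No gene was called in the DKO under DESeq2, the likelihood ratio test, RLE factors, either other filter, a threshold of 0.1, Xist as covariate or the replicate block. With 17 libraries sharing 1 spread 1 gene was called, and leaving out single libraries gave 0 to 1, the 1 arising without control 1. In both it was Cyp4a31 (-3.18, adjusted p = 0.0487, and -3.68, adjusted p = 0.0026). With control 3 left out of that fit of the 17, an alternative added after the data were seen, 0 were called. The difference of effects gave 8 genes with DESeq2, 7 with the likelihood ratio test, 3 with no filter on low counts (Slc16a7, Sostdc1 and Cyp4a31), 0 with the replicate block and 0 to 3 over single libraries left out. The cause was not tested. The median of the increased transcripts was 0.041 to 0.15 over single libraries left out. Same-numbered libraries correlated at -0.032, 0.15 and -0.10 in their deviations, so the numbers were not taken as pairs. Signs near 0 turned for Hexa (0.0064 with DESeq2, 0.0044 with RLE factors, 0.052 with Xist) and Ctsd (0.0019, 0.0033 and 0.0048 in the same order, 0.054 with the block). In the fit of 17 libraries Grn was -0.00089, and without control 3 in it Grn was -0.13, Mcoln3 -0.072, Slc20a1 -0.10, Asah1 -0.095, Atp12a -0.11, Ctsd 0.083 and Umod 0.17. Over single libraries left out Flcn ranged from -0.0040 to 0.34, Tfe3 from -0.29 to 0.0032, Mcoln3 from -0.073 to 0.68, Grn from -0.13 to 0.095, Slc20a1 from -0.10 to 0.54, Asah1 from -0.096 to 0.15, Hexa from -0.15 to 0.20, Ctsd from -0.11 to 0.080, Atp12a from -0.11 to 0.29 and Umod from -0.48 to 0.17.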
